A study of Mus musculus with 92 samples.

Results

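The genes described here are 10 named genes of formative and primed pluripotency, of 56953 genes in the deposited tables, chosen by name and followed through all RNA-seq and SLAM-seq groups of a study of the transcription factor complex GABP in mouse embryonic stem cells. By role they are 5 transcription factors (Otx2, Pou3f1, Lef1, Zic2 and Sall2), the growth factor Fgf5, the de novo DNA methyltransferases Dnmt3a and Dnmt3b, and the RNA-binding proteins Lin28a and Lin28b. The study removed GABPA, the DNA-binding ETS subunit of GABP, or its partner subunits by a degron: the compound dTAG-13 joins the tag to an E3 ligase, and the tagged protein is then degraded. It asked what GABPA does in gene expression, with GABPB lines beside it.

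Pluripotent cells pass through a series of states. Naive cells resemble the epiblast before implantation and are held there in culture by LIF and by inhibitors of MEK and GSK3. On release they lower their naive factors and enter a formative state, in which Otx2, Pou3f1 (also called Oct6), Fgf5 and both de novo methyltransferases are switched on, before the primed state of the epiblast that is about to form the germ layers. Lin28a and Lin28b block the maturation of let-7 microRNAs, and Lef1 is the TCF-family partner of beta-catenin that activates Wnt target genes.

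All cells were C57BL/6 ("B6") mouse embryonic stem cells in which both alleles of the target were tagged: Gabpa dTAG/dTAG, Gabpb1 dTAG/dTAG, or Gabpb1/b2 dTAG/dTAG, called here the GABPA, GABPB1 and GABPB1/GABPB2 lines. The labels do not say how many clones stand behind a line. Every group, controls included, grew in 15% serum with LIF (1000 IU/mL), the MEK inhibitor PD0325901 (0.5 µM) and the GSK3 inhibitor CHIR99021 (3 µM), so no group was released from naive culture. RNA-seq compared 12 h of 500 nM dTAG-13 with DMSO in the 3 lines (6 groups, 12 libraries). SLAM-seq, in which new RNA takes up 4-thiouridine (500 µM) and then shows T-to-C conversions in its reads, followed the GABPA line at 1, 2, 4 and 12 h (7 groups, 14 libraries, sequenced from the 3′ end of polyadenylated RNA). The 2 h and 4 h groups shared 1 DMSO group, which the labels give as 2 h. Each group had 2 libraries, described as biological duplicates, so p-values measure the spread between such duplicates, shared over all groups of an assay.

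RNA-seq libraries held 15.96 to 32.09 M counts, and SLAM-seq libraries 11.48 to 30.69 M reads in genes, of which 0.937 to 4.25 M were converted. The pluripotency genes Pou5f1, Nanog and Esrrb were high in all 12 RNA-seq libraries. They were at 885 to 1801, 381 to 709 and 604 to 1012 counts scaled by library size (CPM). Some others of the 22 listed naive and general pluripotency genes were lower. Dppa3 was at 1.49 to 44.0 CPM, Gbx2 at 10.7 to 52.3, Prdm14 at 14.3 to 36.5 and Tcl1 at 17.7 to 49.6. Of 12 fibroblast markers, which would show feeder cells, Lum was at 0 in every RNA-seq library and Dcn, Col3a1 and Postn stayed at or below 0.248 CPM. Others were expressed, with Fbln2 at 4.40 to 17.8 CPM, Tagln at 1.46 to 8.67, Thy1 at 2.06 to 5.19 and Col1a1 at 1.09 to 4.46. The summed level of the 12 was 16.8 to 17.6 CPM in DMSO and 26.6 to 32.9 CPM after dTAG-13 in the GABPA line. In the GABPB1 line it was 12.53 to 14.05 CPM in DMSO and 13.99 to 14.24 after dTAG-13. In the GABPB1/GABPB2 line it was 21.3 to 26.5 CPM in DMSO and 26.9 to 27.8 after dTAG-13. The part of these markers in the results below was not tested. Because the tag acts on protein, the mRNAs of the GABP subunits do not check the labels; all 3 rose in the GABPA line after dTAG-13 (Gabpb1 by 1.62, Gabpb2 by 0.85 and Gabpa by 0.50 on the log2 scale).

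GABPA binds the ETS motif, so the promoters of the genes are shown first, with the ETS core GGAA, or TTCC where it lies on the other strand, in capitals. Of the 10 genes, 8 are in the RefSeq promoter table (build GRCm38.p6), with 17 promoters of 300 bases each, from 250 bases before to 50 after a transcript's start. Zic2 and Pou3f1 are not in it, so their promoters were not searched. The 4 below belong to some of the genes whose values the results turn on. They are Lef1 at its first start (chr3:131110047-131110346, plus strand), Dnmt3b (chr2:153649199-153649498, plus strand), Lin28a (chr4:134018767-134019066, minus strand) and Lin28b (chr10:45470152-45470451, minus strand), each written 5′ to 3′ along the gene.
Lef1: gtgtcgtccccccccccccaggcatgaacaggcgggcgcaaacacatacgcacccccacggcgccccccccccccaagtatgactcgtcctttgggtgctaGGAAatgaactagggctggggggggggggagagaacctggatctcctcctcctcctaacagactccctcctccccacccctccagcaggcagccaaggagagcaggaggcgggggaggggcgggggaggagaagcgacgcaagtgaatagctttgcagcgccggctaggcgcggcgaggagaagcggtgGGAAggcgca
Dnmt3b: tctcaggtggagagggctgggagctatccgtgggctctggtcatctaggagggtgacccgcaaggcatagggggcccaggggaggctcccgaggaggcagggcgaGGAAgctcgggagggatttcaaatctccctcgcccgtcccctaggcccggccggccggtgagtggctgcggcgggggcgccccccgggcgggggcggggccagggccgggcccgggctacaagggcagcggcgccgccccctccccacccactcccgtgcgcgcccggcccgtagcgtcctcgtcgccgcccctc
Lin28a: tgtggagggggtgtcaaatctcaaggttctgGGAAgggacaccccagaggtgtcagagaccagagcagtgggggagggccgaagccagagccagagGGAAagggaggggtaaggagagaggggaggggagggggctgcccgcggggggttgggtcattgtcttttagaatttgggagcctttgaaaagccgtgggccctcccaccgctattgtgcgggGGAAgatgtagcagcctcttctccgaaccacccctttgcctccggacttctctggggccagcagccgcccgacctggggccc
Lin28b: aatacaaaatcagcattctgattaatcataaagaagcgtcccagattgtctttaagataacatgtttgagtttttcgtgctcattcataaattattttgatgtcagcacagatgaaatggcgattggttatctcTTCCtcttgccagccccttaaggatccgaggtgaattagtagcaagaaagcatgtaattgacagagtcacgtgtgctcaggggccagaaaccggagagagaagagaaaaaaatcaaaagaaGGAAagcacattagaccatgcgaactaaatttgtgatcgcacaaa
Dnmt3b holds 1 core, Lef1 and Lin28b 2 each and Lin28a 3. Over the 17 promoters the number ran from 1 to 5, beside a median of 3 over all 32851 promoters of the table, 96% of which hold the core at least once. The longer motif CCGGAAG, searched on both strands and holding the GGAA core, the centre of the site bound by GABPA, was in 0 of the 17 promoters, and is in 2910 of the 32851 (8.86%). That says only that these letters are not in these windows.

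The genes spanned a wide range of levels in cells kept in naive medium (the plot of TPM by line). In TPM, the scale that divides by transcript length and so allows genes to be compared, Lin28a was highest, with a median of 133.9 over the 12 RNA-seq libraries (116.8 to 171.7). Dnmt3b followed at 65.4 (52.4 to 75.2) and Dnmt3a at 46.4 (25.6 to 53.8). Both methyltransferases and Lin28a were thus well expressed in every library. Zic2 was at a median of 22.4 TPM (8.58 to 40.5), Lin28b at 5.98 (3.52 to 7.39), Lef1 at 4.59 (1.42 to 19.8) and Sall2 at 4.02 (2.37 to 7.03). Pou3f1 (median 1.67 TPM, 1.32 to 2.16), Otx2 (0.475 TPM, 0 to 1.24) and Fgf5 (0.07 TPM, 0 to 0.54) were lowest, the last 2 being the best-known marks of the formative state.

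Not all neighbours in this order were apart. The ranges over the 12 libraries did not overlap between Lin28a and Dnmt3b, Zic2 and Lin28b, Sall2 and Pou3f1, or Pou3f1 and Otx2. They overlapped for the other 5 neighbouring pairs. Of those, Dnmt3b was above Dnmt3a in 12 of 12 libraries, Dnmt3a above Zic2 in 8, Lin28b above Lef1 in 8, Otx2 above Fgf5 in 9, and Lef1 above Sall2 in only 5. Fgf5 had 0 to 7 counts per RNA-seq library and was not tested there; the other 9 genes were.

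**Figure D1:**
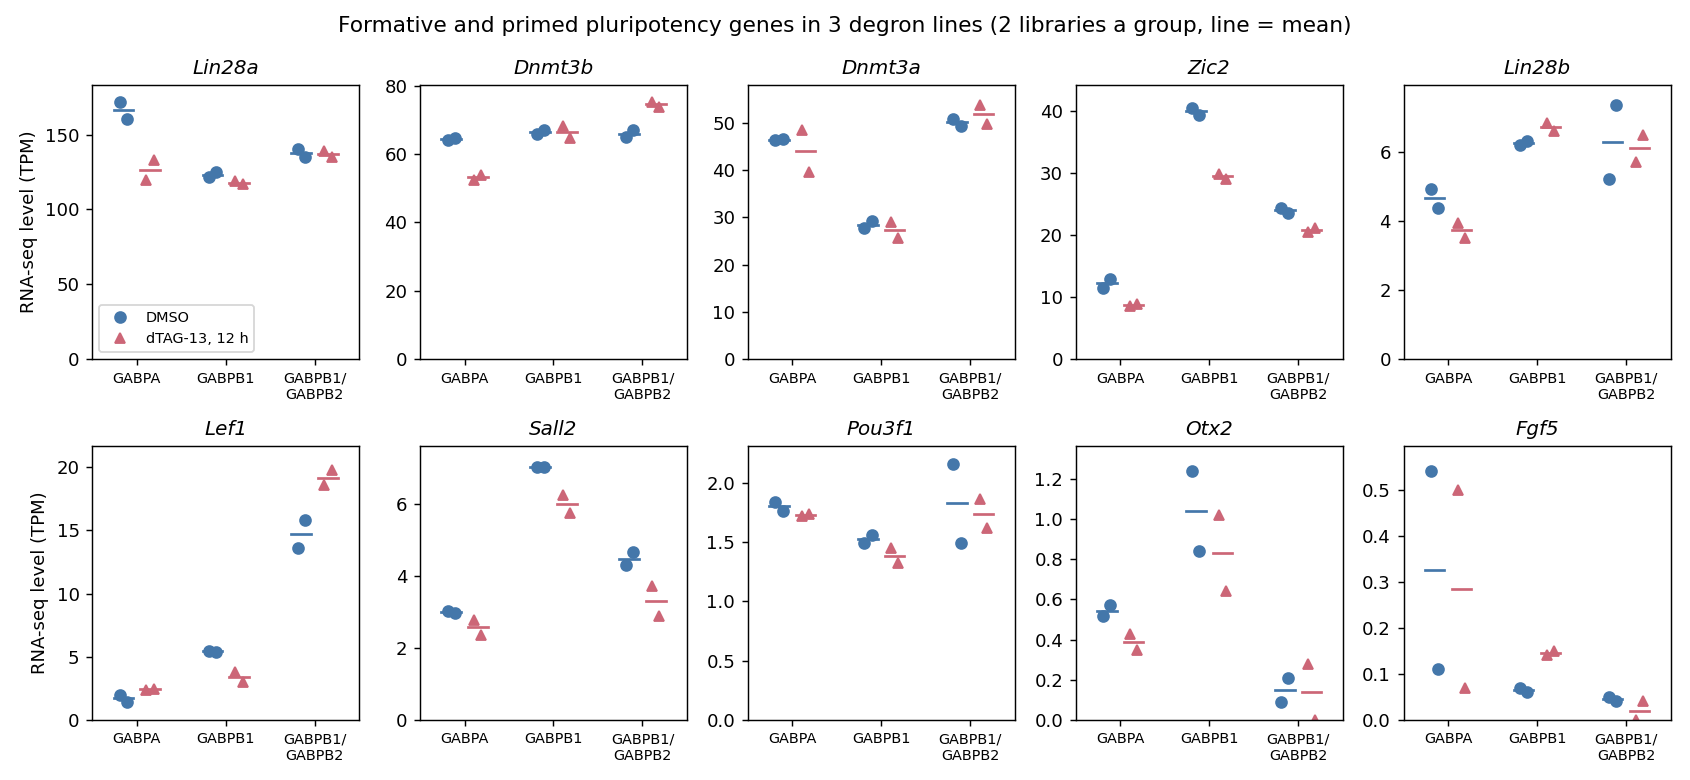
RNA-seq level in TPM (vertical axes, linear, from 0, a scale for each gene) of the 10 genes in the GABPA, GABPB1 and GABPB1/GABPB2 lines (horizontal axes). Circles are DMSO and triangles 12 h of dTAG-13, 1 point for each of 2 libraries, and the line is their mean; Lef1 and Zic2 differ more between lines than between treatments, while Lin28a stands apart in the GABPA line in DMSO.

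After 12 h of dTAG-13 in the GABPA line, Lin28a, Dnmt3b and Zic2 fell, to 0.774, 0.835 and 0.727 of DMSO, and Lef1 rose 1.41-fold. That is 4 of the 9 genes tested, in a comparison in which 46.5% of all 16396 genes passed the test (edgeR's quasi-likelihood test, Benjamini-Hochberg adjusted p under 0.05; 4027 rose and 3589 fell). The 9 genes had a median log2 fold change of -0.26, beside 0.06 for all genes. In bulk RNA, fewer cells of a type and less RNA per cell cannot be told apart.

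In the GABPB1 line Lef1 and Zic2 fell, 2 of the 9, where 6.75% of all genes passed (210 rose and 896 fell; median -0.18 for the 9 and -0.00 for all genes). In the GABPB1/GABPB2 line Lef1 rose and Sall2 fell, again 2 of the 9, where 12.8% of all genes passed (median -0.03 for the 9 and 0.01 for all genes). Zic2 was the gene called in both the GABPA and GABPB1 lines in the same direction, and Lef1 the gene called in all 3 lines, in opposite directions.

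Lef1 (chr3:130904120-131018005, plus strand, mm39) was at 1.99 and 1.42 TPM in DMSO and at 2.38 and 2.45 TPM after dTAG-13 in the GABPA line. In the GABPB1 line it was at 5.46 and 5.37 TPM in DMSO and at 3.81 and 3.01 TPM after dTAG-13, and in the GABPB1/GABPB2 line at 13.6 and 15.9 TPM in DMSO and at 18.6 and 19.8 TPM after dTAG-13. The dTAG-13 libraries did not overlap those in DMSO in any line, lying above them in the GABPA and GABPB1/GABPB2 lines and below them in the GABPB1 line. The log2 fold changes were 0.49 (SE 0.18, adjusted p = 0.033, edgeR's quasi-likelihood test) in the GABPA line, -0.75 (SE 0.13, adjusted p = 0.0015) in the GABPB1 line and 0.40 (SE 0.11, adjusted p = 0.022) in the GABPB1/GABPB2 line. The response in the GABPA line exceeded that in the GABPB1 line by 1.245 (SE 0.22, adjusted p = 0.00041, edgeR's interaction test), which passed under all alternatives run. Lef1 overlaps Gm43352 on the opposite strand over 1620 bases, and Gm43352 was given 276 RNA-seq counts over the 12 libraries beside 4008 for Lef1.

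Each of the 3 Lef1 calls within a line was lost when certain single libraries were left out. Lef1 had 71 to 100 counts per library in the GABPA line, 189 to 345 in the GABPB1 line and 573 to 708 in the GABPB1/GABPB2 line. In the GABPA line edgeR no longer called it when DMSO replicate 2 (0.28, adjusted p = 0.33), the first dTAG-13 library (0.54, adjusted p = 0.067) or the other (0.44, adjusted p = 0.14) was left out, nor in a fit of the 4 libraries alone (0.45, adjusted p = 0.085). In the GABPB1 line it was lost without dTAG-13 replicate 2 (-0.57, edgeR adjusted p = 0.061). In the GABPB1/GABPB2 line it ended when DMSO replicate 1 (0.33, edgeR adjusted p = 0.11), the first dTAG-13 library (0.46, adjusted p = 0.070) or the other (0.34, adjusted p = 0.19) was left out.

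Zic2 (chr14:122712847-122717264, plus strand, mm39), a zinc-finger factor that binds enhancers in the move to the formative state, was at 11.42 and 12.99 TPM in DMSO and at 8.58 and 8.90 TPM after dTAG-13 in the GABPA line. It was at 40.5 and 39.4 TPM in DMSO and at 29.9 and 29.1 TPM after dTAG-13 in the GABPB1 line, and at 24.5 and 23.6 against 20.5 and 21.2 TPM in the GABPB1/GABPB2 line. The dTAG-13 libraries were below the DMSO libraries, with no overlap, in all 3 lines. Zic2 fell by 0.46 on the log2 scale (SE 0.093, adjusted p = 0.00059, edgeR's quasi-likelihood test) in the GABPA line and by 0.47 (SE 0.072, adjusted p = 0.00052) in the GABPB1 line, and its value of -0.21 in the GABPB1/GABPB2 line did not pass (SE 0.080, adjusted p = 0.10). The first 2 responses differed by 0.01, with an interval of 2 SE on either side from -0.22 to 0.25. The fall in the GABPA line and in the GABPB1 line was kept under all alternatives run.

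Sall2 (chr14:52548629-52566219, minus strand, mm39), a zinc-finger factor of the spalt family, was at 4.31 and 4.66 TPM in DMSO and at 3.72 and 2.90 TPM after dTAG-13 in the GABPB1/GABPB2 line. It fell there by 0.43 on the log2 scale (SE 0.12, adjusted p = 0.032, edgeR's quasi-likelihood test), a call lost with DESeq2 (adjusted p = 0.062), in a fit of the 4 libraries alone (adjusted p = 0.11), and on leaving out replicate 2 of DMSO (-0.38, adjusted p = 0.089) or of dTAG-13 (-0.28, adjusted p = 0.31). In the GABPA and GABPB1 lines its values were -0.16 and -0.26 and did not pass in edgeR (adjusted p = 0.34 and 0.17); a fit of the 4 GABPB1 libraries alone gave -0.25 with an adjusted p of 0.016. All 6 of its dTAG-13 libraries were nevertheless below the DMSO libraries of their line.

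Pou3f1 (chr4:124550600-124554448, plus strand, mm39), a POU factor, stayed between 1.32 and 2.16 TPM, and its log2 fold changes of -0.03, -0.18 and -0.08 in the GABPA, GABPB1 and GABPB1/GABPB2 lines did not pass. Their intervals of 2 SE on either side reached from -0.54 to 0.35. Otx2 (chr14:48895134-48911276, minus strand, mm39), the homeobox factor that leads exit from the naive state, had 12 and 14 counts in DMSO and 9 and 7 after dTAG-13 in the GABPA line, 44 and 32 against 32 and 26 in the GABPB1 line, and 3 and 5 against 6 and 0 in the GABPB1/GABPB2 line. Its intervals ran from -1.91 to 1.75, and no change was detectable at this depth. Fgf5 (chr5:98402043-98424889, plus strand, mm39), a secreted FGF ligand of the postimplantation epiblast, had 5 and 4 counts against 5 and 2 in the GABPA line and at most 7 in any library.

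The de novo methyltransferases, which write DNA methylation as cells leave the naive state, are described next. Dnmt3b (chr2:153491370-153529650, plus strand, mm39) in the GABPA line had 190.6 and 192.1 CPM with DMSO, and 155.5 and 164.2 CPM with dTAG-13. It had 166.0 and 170.2 against 167.8 and 164.2 CPM in the GABPB1 line, and at 158.2 and 164.1 against 179.8 and 180.8 CPM in the GABPB1/GABPB2 line. After dTAG-13 both libraries were thus lower in the GABPA line, overlapped DMSO in the GABPB1 line and were higher in the GABPB1/GABPB2 line. The log2 fold change was -0.26 (SE 0.056, adjusted p = 0.0011, edgeR's quasi-likelihood test) in the GABPA line, a fall kept under all alternatives run, and -0.02 (SE 0.055) in the GABPB1 line. In the GABPB1/GABPB2 line the value of 0.16 (SE 0.056) had an adjusted p of 0.070 in edgeR and of 0.026 in DESeq2.

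Dnmt3a (chr12:3856007-3964443, plus strand, mm39) in the GABPA line had 107.8 and 109.4 CPM with DMSO, and 107.2 and 99.8 CPM with dTAG-13, just below. By TPM Dnmt3a overlapped there, at 46.3 and 46.5 in DMSO and 48.5 and 39.6 after dTAG-13. Its log2 fold changes of -0.07, -0.05 and 0.07 in the GABPA, GABPB1 and GABPB1/GABPB2 lines did not pass in edgeR, and the intervals of 2 SE on either side lay between -0.21 and 0.21. Dnmt3a had 1692 to 3280 counts per library.

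Of the LIN28 pair, Lin28a fell in the GABPA line. Lin28a (chr4:133730641-133746152, minus strand, mm39) was at 171.7 and 160.6 TPM in DMSO and at 119.8 and 133.0 TPM after dTAG-13 there, at 121.5 and 124.7 against 119.1 and 116.8 TPM in the GABPB1 line, and at 140.2 and 134.7 against 139.3 and 134.9 TPM in the GABPB1/GABPB2 line. The 2 DMSO libraries of the GABPA line were the highest of all 12. With dTAG-13 the line lay within the range of the other lines by TPM, but above it by CPM (308.5 and 345.8, against 244.6 to 282.8). The log2 fold change was -0.37 (SE 0.062, adjusted p = 0.00011, edgeR's quasi-likelihood test) in the GABPA line, kept under all alternatives run, -0.10 (SE 0.062, adjusted p = 0.43) in the GABPB1 line and -0.01 (SE 0.062, adjusted p = 0.97) in the GABPB1/GABPB2 line.

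Lin28b (chr10:45252716-45362491, minus strand, mm39) was at 4.95 and 4.39 TPM in DMSO and at 3.95 and 3.52 TPM after dTAG-13 in the GABPA line. Both dTAG-13 libraries were below DMSO. The value of -0.30 (SE 0.14) had an adjusted p of 0.10 in edgeR with all libraries in the fit, and of 0.042 in a fit of the 4 libraries alone (-0.33) and 0.039 with no filter on low counts (-0.32). In the other lines its values were 0.07 (SE 0.12) and -0.03 (SE 0.13).

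**Figure D2:**
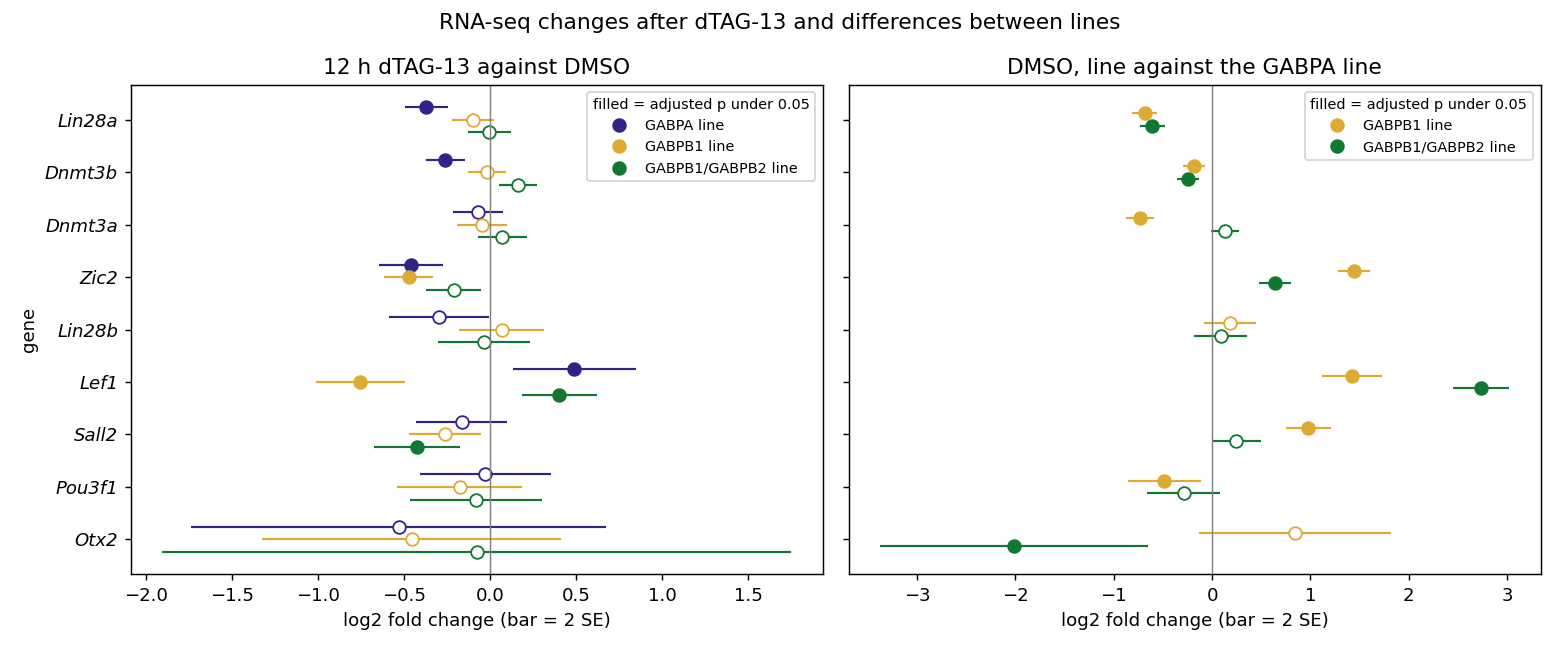
Log2 fold change (horizontal axes, bars 2 SE on either side) of the 9 genes tested in RNA-seq (vertical axis). Left, 12 h of dTAG-13 against DMSO in each line; right, DMSO libraries of the GABPB1 and GABPB1/GABPB2 lines against those of the GABPA line; filled points have an adjusted p under 0.05. Lef1 lies at 0.49, -0.75 and 0.40 on the left, while on the right it reaches 1.42 and 2.73.

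Whether the lines responded differently was tested by the difference of their responses. Lef1, Dnmt3b and Lin28a differed between the GABPA and GABPB1 lines, 3 of the 9 genes, where 25.7% of all genes did. Dnmt3b and Lin28a differed between the GABPA and GABPB1/GABPB2 lines, 2 of the 9, where 20.7% of all genes did. Both differences share the libraries of the GABPA line.

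For Dnmt3b the response in the GABPA line was lower than that in the GABPB1 line by 0.24 on the log2 scale (value -0.24, SE 0.078, adjusted p = 0.031, edgeR's interaction test) and lower than that in the GABPB1/GABPB2 line by 0.42 (value -0.42, SE 0.079, adjusted p = 0.00094). For Lin28a the values were -0.27 (SE 0.088, adjusted p = 0.030) and -0.36 (SE 0.088, adjusted p = 0.0065). The differences from the GABPB1/GABPB2 line were kept under all alternatives run. Those from the GABPB1 line were not. For Dnmt3b the edgeR call was lost with no filter on low counts (adjusted p = 0.058) and on leaving out GABPA DMSO replicate 1 (0.065), DMSO replicate 2 (0.079) or dTAG-13 replicate 1 (0.10). For Lin28a it ended on leaving out replicate 1 of GABPA DMSO (edgeR adjusted p = 0.13) or of dTAG-13 (0.13).

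In DMSO alone the lines already differed in these genes. Against the GABPA line, the GABPB1 line was higher in Zic2, Lef1 and Sall2 and lower in Dnmt3a, Lin28a, Pou3f1 and Dnmt3b, 7 of the 9 genes, where 61.2% of all genes differed. The GABPB1/GABPB2 line was higher in Lef1 and Zic2 and lower in Otx2, Lin28a and Dnmt3b, 5 of the 9, where 62.1% of all genes differed. Both contrasts use the same 2 DMSO libraries of the GABPA line. The shares of the 9 genes are near those of all genes.

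Lef1 showed the widest spread between the lines. Its mean in DMSO was 14.7 TPM in the GABPB1/GABPB2 line and 1.71 TPM in the GABPA line, a ratio of 8.63, and the fitted log2 differences from the GABPA line were 2.73 (SE 0.14, adjusted p = 1.3e-10, edgeR's quasi-likelihood test) and 1.42 (SE 0.15, adjusted p = 4.8e-07) for the GABPB1/GABPB2 and GABPB1 lines. Zic2 differed by 1.443 (SE 0.080, adjusted p = 2.1e-10, edgeR's quasi-likelihood test) in the GABPB1 line and by 0.64 (SE 0.083, adjusted p = 4.5e-06) in the GABPB1/GABPB2 line. Sall2 was at 7.03 and 7.02 TPM in the GABPB1 line and at 3.02 and 2.97 TPM in the GABPA line, a difference of 0.98 (SE 0.12, adjusted p = 1.6e-06, edgeR). These differences of Lef1, Zic2 and Sall2 were kept under all alternatives run.

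Dnmt3a was lowest in the GABPB1 line, at 27.8 and 29.1 TPM against 46.3 and 46.5 TPM in the GABPA line, a log2 difference of -0.73 (SE 0.072, adjusted p = 1.8e-07, edgeR's quasi-likelihood test). Lin28a was lower in both the GABPB1 line (-0.69, SE 0.062) and the GABPB1/GABPB2 line (-0.61, SE 0.062), and these differences too were kept under all alternatives run. None of the alternatives used TPM, by which the Lin28a difference was smaller for both lines. TPM did not shrink every difference: for Lef1 in the GABPB1/GABPB2 line the ratio was 8.63, and the fitted fold by counts 6.65. The DMSO means of Lin28a were 166.2 TPM in the GABPA line and 123.1 TPM in the GABPB1 line, a ratio of 1.35. By counts the fitted fold, in the other direction, was 0.621 for the GABPB1 line and 0.657 for the GABPB1/GABPB2 line. Dnmt3b was lower by counts, with -0.19 (SE 0.055) and -0.25 (SE 0.056), but not by TPM, where its DMSO means were 66.4 in the GABPB1 line and 64.4 in the GABPA line. The first of these Dnmt3b calls was lost without GABPB1 DMSO replicate 1 (-0.14, edgeR adjusted p = 0.14) or replicate 2 (-0.18, adjusted p = 0.056).

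Pou3f1 was lower in the GABPB1 line by 0.49 on the log2 scale (value -0.49, SE 0.18, adjusted p = 0.031, edgeR), a call lost with DESeq2 (adjusted p = 0.093), with no filter on low counts (0.065) and without any 1 of the 4 libraries (adjusted p from 0.075 to 0.16). Otx2 had 3 and 5 counts in the GABPB1/GABPB2 line against 12 and 14 in the GABPA line, a log2 difference of -2.02 (SE 0.68, adjusted p = 0.017, edgeR). That call was lost without GABPA DMSO replicate 1 (adjusted p = 0.054) or replicate 2 (0.057), or GABPB1/GABPB2 DMSO replicate 1 (-1.49, adjusted p = 0.12). Markers of rare 2-cell-like cells also differed between lines in DMSO, with a summed level of 8.85 to 10.3 CPM in the GABPA line, 0.660 to 0.838 CPM in the GABPB1 line and 11.8 to 14.4 CPM in the GABPB1/GABPB2 line. Summed markers of mesendoderm and neuroectoderm were at 185.9 to 190.2, 167.1 to 167.3 and 82.2 to 88.0 CPM in the same order. Of these markers Tubb3 alone was at 39.6 to 127 CPM over all RNA-seq libraries. The part of both sets of markers in the differences of the 10 genes was not tested.

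New RNA of these genes was measured in the GABPA line by SLAM-seq, where 6 of the 10 had enough converted reads to be tested. Otx2, Fgf5, Zic2 and Sall2 had 0 to 11 converted reads per library and were not. At 1, 2 and 4 h, 0 of the 6 genes passed edgeR's quasi-likelihood test, and 0 of 6 had an unadjusted p under 0.05 or passed in DESeq2. Few genes passed at these times: 1.78% of all 15887 genes at 1 h, 3.35% at 2 h and 4.02% at 4 h, nearly all of them falls (273, 510 and 621 genes). The 6 genes had median log2 fold changes of -0.03, -0.11 and 0.19 beside -0.00, 0.01 and 0.02 for all genes.

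Lin28a, which fell in the RNA-seq, had 50.7 and 30.3 converted CPM in DMSO and 64.7 and 55.7 after 1 h of dTAG-13, a value of 0.59 that did not pass (SE 0.30, adjusted p = 0.50, edgeR). At 12 h it was at 45.3 and 74.9 against 58.2 and 69.2 converted CPM, and the 2 groups overlapped (0.07, SE 0.25). Dnmt3b was at 33.3 and 39.7 converted CPM in DMSO and at 39.5 and 27.8 after 12 h, also overlapping (-0.08, SE 0.24). The intervals of 2 SE on either side, -0.42 to 0.56 for Lin28a and -0.56 to 0.39 for Dnmt3b, hold the RNA-seq values of -0.37 and -0.26, so the depth of converted reads does not separate them.

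Pou3f1, with 1 to 12 converted reads per library, had intervals wider than 1 log2 unit on either side at every time. Its gene interval overlaps the opposite-strand gene Gm2164 over 363 bases. Gm2164 was given 84 converted reads over all libraries, counted over its whole interval, beside 77 for Pou3f1. The sources used here do not give how strands were treated. Dnmt3a, at 70.2 and 73.1 converted CPM in DMSO and 87.9 and 92.4 after 12 h, lay above DMSO in both libraries at 12 h (0.33, SE 0.17, adjusted p = 0.15, edgeR) and below it at 1 h and 2 h (-0.24 and -0.26).

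At 12 h, 1 of the 6 genes passed, where 30.6% of all genes did: Lin28b rose. It had 130.3 and 134.4 converted CPM in DMSO (282 and 298 reads) and 182.0 and 254.0 after dTAG-13 (756 and 448 reads), with no overlap, a log2 fold change of 0.71 (SE 0.19, adjusted p = 0.0064, edgeR's quasi-likelihood test). The 12 h response exceeded the 1 h response by 1.09 (SE 0.28, adjusted p = 0.017, edgeR's interaction test), again 1 of 6 genes, where 6.84% of all genes passed. The direction was opposite to that of Lin28b in RNA-seq at the same time (-0.30), a value that did not pass (adjusted p = 0.105, edgeR). The assays count unlike things, since the SLAM-seq gene interval includes introns.

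Most SLAM-seq reads of Lin28b map to more than 1 place. Over all libraries 80.1% were multimapped, beside 0.349% for Dnmt3b and 2.83% for Lin28a, and converted reads were not split by mapping here. The multimapped share of whole libraries moved with the groups too, from 3.92% and 4.55% in DMSO to 7.20% and 9.06% after dTAG-13 at 12 h. Counted over uniquely mapped reads alone, converted or not, Lin28b was at 223 and 225 reads in DMSO and 552 and 314 after dTAG-13, a value of 0.26 that did not pass (SE 0.18, adjusted p = 0.23, edgeR), and the 12 h response exceeded the 1 h response by 0.23 (adjusted p = 0.50). The call with converted reads was also lost without dTAG-13 replicate 2 at 12 h (0.52, adjusted p = 0.077), and that of the difference from 1 h on leaving out dTAG-13 replicate 2 at 1 h (0.91, adjusted p = 0.12), DMSO replicate 1 at 12 h (1.08, 0.064) or dTAG-13 replicate 2 at 12 h (0.86, 0.080). The part of multimapped reads in the rise was not tested further.

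**Figure D3:**
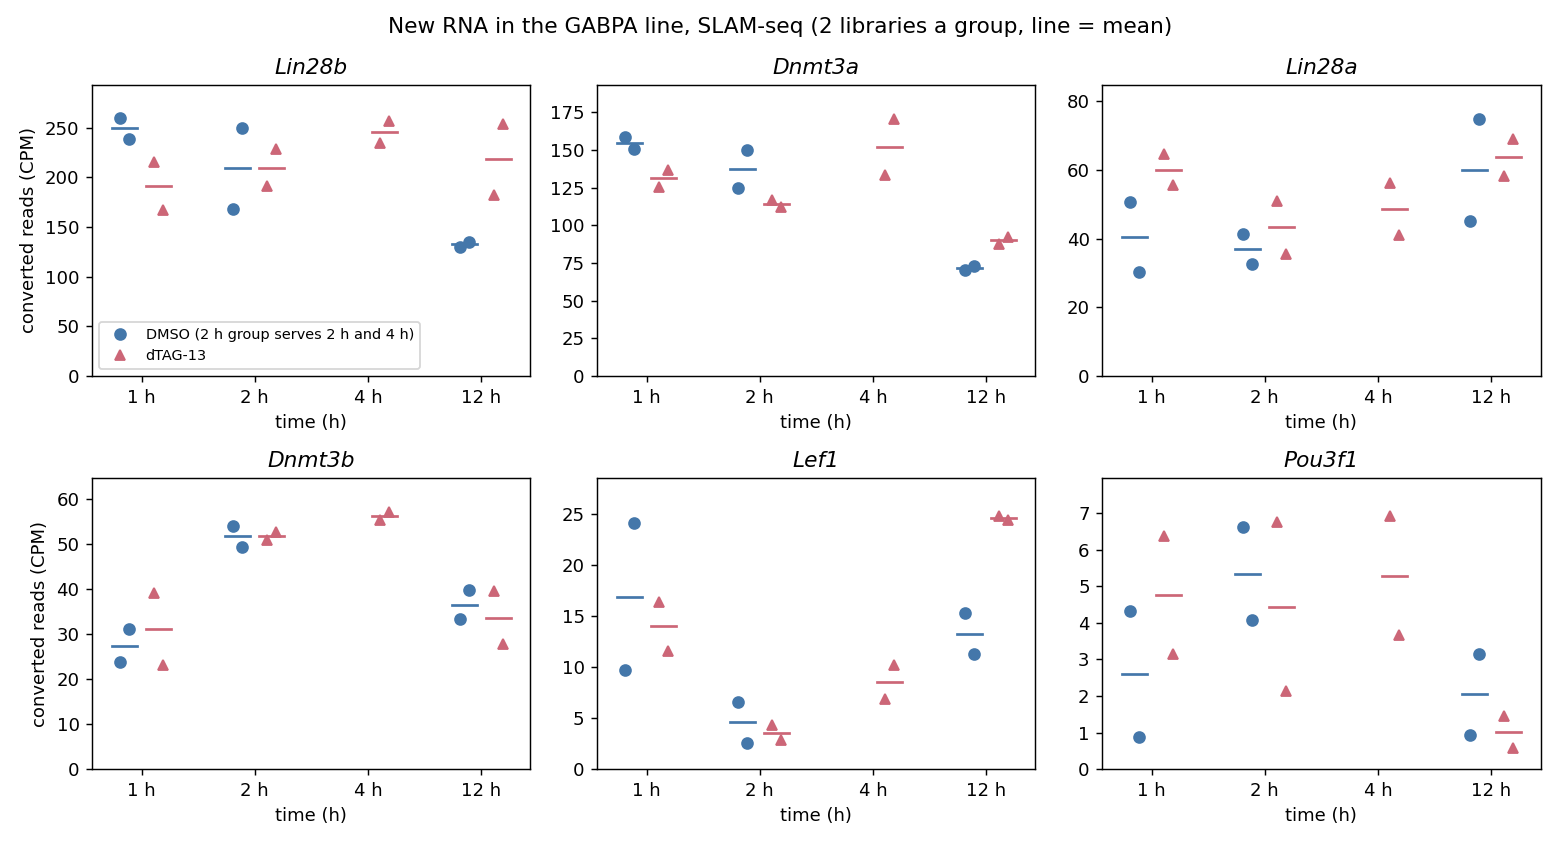
Converted reads of the 6 genes tested in SLAM-seq of the GABPA line, in CPM (vertical axes, linear, from 0, a scale for each gene), by hours of treatment (horizontal axes). Circles are DMSO and triangles dTAG-13, 1 point for each of 2 libraries, with the mean as a line; the DMSO group drawn at 2 h serves 2 h and 4 h. Lin28b after 12 h lies at 182.0 and 254.0 against 130.3 and 134.4 in DMSO, and the DMSO level itself differs between times.

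Lef1 did not pass at 12 h, although its value was larger than that of Lin28b. It was at 15.3 and 11.3 converted CPM in DMSO and at 24.8 and 24.4 after dTAG-13, with no overlap, a value of 0.89 (SE 0.37) whose adjusted p was 0.068 in edgeR with all libraries in the fit and 0.027 in a fit of the 4 libraries alone (0.90). Lef1 was also higher in both dTAG-13 libraries at 4 h (6.91 and 10.2 against 6.61 and 2.55 converted CPM; 0.94, SE 0.55, adjusted p = 0.49). In SLAM-seq at 12 h its direction was thus the one it had in RNA-seq of the GABPA line.

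Counting all SLAM-seq reads, converted or not, gave 5 calls among the 10 genes at 12 h, where 57.4% of all 26957 genes passed. Fgf5 (1.90, SE 0.58, adjusted p = 0.011, edgeR), Lef1 (0.70, SE 0.22, adjusted p = 0.014) and Lin28b (0.48, SE 0.16, adjusted p = 0.019) rose, and Dnmt3b (-0.65, SE 0.16, adjusted p = 0.0030) and Dnmt3a (-0.40, SE 0.15, adjusted p = 0.030) fell. With uniquely mapped reads alone 4 of the 10 passed, Lin28b dropping out, where 58.0% of all genes did. For the 12 h response less the 1 h response, 3 of 10 passed with all reads (36.3% of all genes) and 2 of 10 with uniquely mapped reads (36.2%).

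These all-read values moved with the level of a gene. The median log2 fold change of all genes at 12 h was 1.49 for the 5988 genes under an average log2 CPM of 0, 0.84 from 0 to 1, 0.55 from 1 to 2, 0.12 from 2 to 4, -0.35 from 4 to 6 and -0.69 from 6 upwards. Fgf5, at an average log2 CPM of -0.00, and Otx2, at 0.22 (1.00, SE 0.48, adjusted p = 0.085, edgeR), lie where genes in general went up. Otx2 also overlaps the opposite-strand gene Otx2os1 over 5112 bases. Otx2os1 was given 266 converted reads over all libraries, counted over its whole interval, beside 65 for Otx2, and strand handling is unknown. Dnmt3a and Dnmt3b, at 5.88 and 5.69, lie where genes in general went down. Lef1, at 3.28, lay above the median of its range (0.70 against 0.12), and Lin28a at 5.44 as well (-0.12 against -0.35). Lin28b, at 6.17, was farthest above (0.48 against -0.69), and its multimapped reads are counted in this value. With converted reads the same medians ran only from 0.23 to -0.09, and in RNA-seq of the GABPA line they were 0.29 in the lowest range and 0.03 in the highest.

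**Figure D4:**
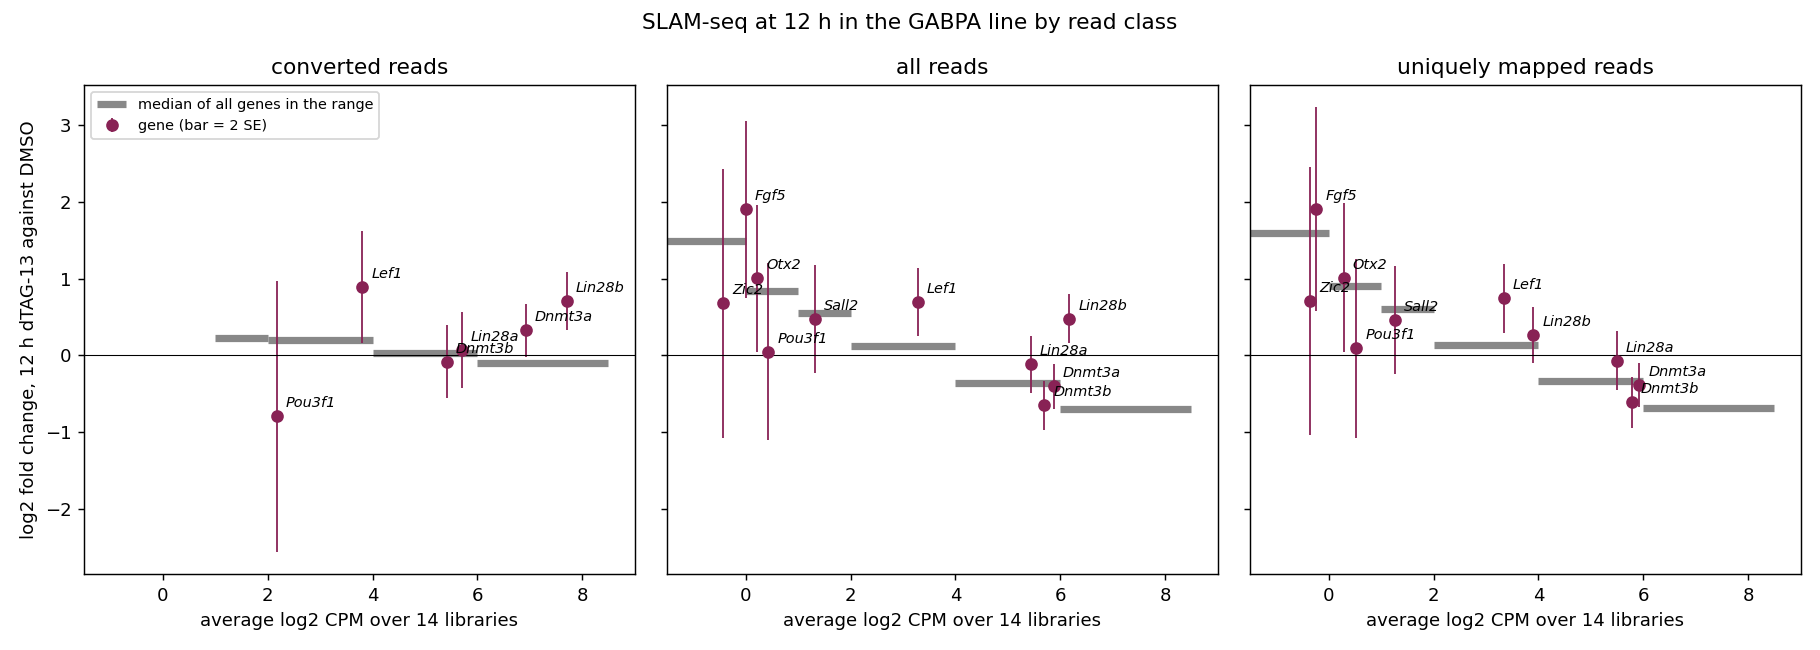
Log2 fold change at 12 h of dTAG-13 against DMSO in SLAM-seq (vertical axis) against average log2 CPM over 14 libraries (horizontal axes), for converted reads, all reads and uniquely mapped reads. Points are the genes described here with bars of 2 SE on either side, and grey bars are medians of all genes tested in each range, of which the first (all but the left panel) and the last are open-ended; with all reads the medians go from 1.49 to -0.69, and Lef1 lies above its grey bar in each panel.

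Other genes of the same pathways moved in both directions in the GABPA line. Their lists were chosen with earlier results of these data known, and some lists share genes. Of 22 other formative and primed epiblast genes tested in RNA-seq, 5 rose and 8 fell (median -0.10, edgeR), where 46.5% of all genes were called. Among them were Nodal, a TGF-beta ligand of the epiblast (0.87), the T-box factor Eomes (-1.01), Zic5 (-0.9996) and the methyltransferase cofactor Dnmt3l (-0.52). In the GABPB1 line 0 rose and 6 fell (6.75% of all genes called), and in the GABPB1/GABPB2 line 0 rose and 2 fell (12.8% of all genes called). Of 22 naive and general pluripotency genes, 8 rose and 7 fell in the GABPA line (median 0.11), 0 were called in the GABPB1 line and 1 rose and 3 fell in the GABPB1/GABPB2 line.

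Beside Lef1, 25 Wnt and TCF/LEF pathway genes were tested in RNA-seq of the GABPA line: 8 rose and 6 fell, with a median of 0.04, beside 46.5% of all genes called. Tcf7, the TCF paralog of Lef1, fell (-0.75, SE 0.082, adjusted p = 9.0e-07, edgeR), as did Pygo2, a beta-catenin coactivator (-1.07), while Apc (0.64) and Ctnnb1, which encodes beta-catenin (0.39), rose. In DMSO, 16 of these 25 genes were higher and 5 lower in the GABPB1 line than in the GABPA line (61.2% of all genes called), and 13 higher and 6 lower in the GABPB1/GABPB2 line (62.1% of all genes called), including the Wnt target Axin2 (1.54) in the latter. Of 15 FGF-ERK response genes, 4 rose and 3 fell in the GABPA line. Of 28 regulators of exit from naive pluripotency, 9 rose, among them folliculin (Flcn, 0.90) and the receptor Fgfr1 (0.67), and 6 fell.

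Beside the methyltransferases, 7 of 16 DNA methylation genes fell in the GABPA line and 2 rose (46.5% of all genes called), with Uhrf1, which brings DNMT1 to replicating DNA, at -0.51, and the chromatin remodeler Hells at -0.63. Uhrf1 also fell in the GABPB1 (-0.30) and GABPB1/GABPB2 (-0.31) lines. Beside the LIN28 pair, 11 of 23 let-7 and LIN28 pathway genes fell and 5 rose in the same comparison, with the microRNA processing enzyme Drosha at -0.40, the terminal uridylyltransferase Tut7, which acts on precursor let-7, at -0.60 and the RNA-binding protein Igf2bp2 at -0.73. Tut7 was the 1 gene of these lists called in SLAM-seq at 2 h (-1.25, SE 0.31, adjusted p = 0.018, edgeR) and 4 h (-1.15, SE 0.32, adjusted p = 0.037), apart from the GABP subunits, and 0 genes of the lists were called at 1 h. Tut7 also fell in RNA-seq of the other lines (-0.34 and -0.66). In SLAM-seq at 12 h, 5 of the 23 let-7 and LIN28 pathway genes rose and 2 fell, and 3 of the 16 DNA methylation genes fell and 0 rose, where 30.6% of all genes were called.

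Of 16 tested paralogs of the 10 genes, 7 fell and 1 rose in the GABPA line (median -0.52), where 46.5% of all genes were called. Markers of mesendoderm and neuroectoderm (13 tested) included 4 that fell and 2 that rose. Their summed level was 185.9 to 190.2 CPM in DMSO and 131.1 to 133.7 CPM after dTAG-13. Over all RNA-seq libraries Tubb3 (39.6 to 127 CPM), Eomes (5.22 to 41.6) and Nes (9.965 to 26.6) were highest in this sum. The other markers each stayed at or below the 12.3 CPM of Sox1. Markers of primitive endoderm and trophoblast (13 tested) included 5 that rose, with Col4a1 at 1.01, and 1 that fell. Their summed level was 197 to 211 CPM in DMSO and 262 to 298 CPM after dTAG-13. Lamb1 (61.6 to 137 CPM), Tfap2c (23.1 to 155), Col4a1 (11.1 to 73.65) and Krt8 (12.2 to 52.0) were highest in that sum over all RNA-seq libraries. Gata4 was at 1.35 to 3.96 CPM and Gata6 at 0.238 to 0.681. Of 7 tested fibroblast markers 3 rose and 0 fell. The part of these markers in the changes of the 10 genes was not tested.

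For 5 of the 6 genes tested in both assays, the 2 genes with the most similar values were found by the Euclidean distance over 7 log2 fold changes of dTAG-13 against DMSO (3 in RNA-seq and 4 in SLAM-seq), among 8621 candidates well measured in both assays (8622 for Pou3f1). These fold changes share libraries, and the distance is a description. For Dnmt3b they were Rnf13 (distance 0.194) and Eif4a1 (0.231), for Dnmt3a B4galt5 (0.196) and Uhrf1bp1l (0.201), and for Lin28b Malt1 (0.278) and Tsc22d4 (0.306). Pou3f1 was nearest to Lmnb2 (0.391) and Meaf6 (0.467). Lef1 was farthest from its nearest genes, Cgnl1 (0.953) and Zfp777 (0.973). Its 4 SLAM-seq values had SEs from 0.37 to 0.62, so this distance does not show that its response is unlike that of other genes.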

How the data were processed

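Of 92 samples, 26 were used here (12 RNA-seq and 14 SLAM-seq libraries), and the other 66 were not analysed here. The RNA-seq files hold expected counts and TPM for each gene, which the authors made with RSEM 1.3.1 (STAR 2.7.11a, Trim Galore 0.6.7 and cutadapt 3.5 are also named), per the submitters' processing notes. The SLAM-seq files hold counts of all, converted and multimapped reads in each gene interval, introns included, which the authors made with slamdunk 0.4.3 on mm39, per the file headers. Strand handling is unknown.

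Expected counts were rounded. Each assay was fitted once over all its libraries with edgeR 4.0.16 (TMM, filterByExpr, quasi-likelihood F test) in R 4.3.3, and p-values were adjusted by Benjamini and Hochberg's method across every tested gene, with calls at an adjusted p under 0.05. The SE was taken as |log2 fold change| over the root of F. The scripts were tested on simulated data. The main SLAM-seq test used converted reads.

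The 10 genes, the lists and the tests were chosen with earlier results of these data known. Named are all 10 genes, the GABP subunits, of each list at most 4 called genes with the smallest p, and the 2 nearest genes by distance (those of Lin28a are not reported here). Uhrf1 and Tut7 outside the GABPA line, and Col4a1, were singled out after their values were seen. Alternatives were DESeq2 1.42.0, its size factors, no filter on low counts, a minimum average log2 CPM of 3, only the libraries of a comparison, a replicate block, all SLAM-seq reads, and leaving out each library. Uniquely mapped reads were added after the share of multimapped reads of Lin28b was seen.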

Additional observations from a re-analysis of the deposited data

Results flagged for a closer look

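The responses of the lines to 12 h of dTAG-13 differed for 3 of the 10 genes by an interaction test in edgeR, with Fgf5 not tested. The response in the GABPA line less that in the GABPB1 line was 1.245 for Lef1, -0.2418 for Dnmt3b and -0.272 for Lin28a on the log2 scale. Of all genes, 25.7% differed in that comparison, and its Dnmt3b and Lin28a calls were lost under some alternatives. The response in the GABPA line less that in the GABPB1/GABPB2 line was -0.4217 for Dnmt3b and -0.3643 for Lin28a, where 20.7% of all genes differed.

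In SLAM-seq of the GABPA line, the 12 h response of Lin28b exceeded its 1 h response by 1.089 on the log2 scale by the same kind of test with converted reads. With uniquely mapped reads the difference was 0.23 and did not pass (edgeR adjusted p = 0.50), and 80.1% of the gene's SLAM-seq reads were multimapped.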

How the results depend on the processing

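With 2 libraries a group, of 27 called results 16 were kept under every alternative run, and 11 were lost under at least 1 (33 of 292 values), with 0 reversed. Of 66 results not called, 57 of 697 values reversed and 16 became called. A replicate block changed the direction or call of 0 of 93 results. It was 1 term shared by all groups, each with 1 library of either number. Such a term can hardly move a fold change and does not test pairing within a comparison. Same-numbered libraries correlated at 0.288 at 2 h and 0.127 at 4 h in SLAM-seq and at -0.139 to 0.0946 elsewhere. The labels give the numbers no shared source, so pairing was not assumed. The causes of the changes were not tested.

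With DESeq2 and with its size factors, Lin28a in the GABPB1/GABPB2 line became 0.01281 and 0.01287, and the Zic2 response difference between the GABPA and GABPB1 lines became -0.0002476 and -0.0003272. That difference became -0.006528 with no low-count filter and -0.0414 with only the libraries of the comparison. For Dnmt3a it became 0.02685 at a minimum average log2 CPM of 3. In SLAM-seq at 2 h with no low-count filter, Dnmt3b became -0.03611 and Lin28b -0.04058. With only the libraries of the comparison, 1 gene in place of 2 was called in the GABPB1/GABPB2 line, and 2 in place of 1 in SLAM-seq at 12 h. All reads gave 5 calls at 12 h and 3 for 12 h less 1 h, and uniquely mapped reads 4 and 2, in place of 1 each.

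Leaving out 1 library at a time gave 1 to 2 of the 10 genes called in the GABPB1 line, 0 to 2 in the GABPB1/GABPB2 line, 1 to 3 for the difference of the GABPA and GABPB1 responses, and 0 to 1 in SLAM-seq at 12 h and for 12 h less 1 h. The ranges of log2 values whose sign turned follow. In the GABPB1 line they were -0.1426 to 0.07079 for Dnmt3a and -0.02331 to 0.0182 for Dnmt3b. In the GABPB1/GABPB2 line they were -5.02 to 0.7783 for Otx2, -0.3113 to 0.2313 for Pou3f1, -0.03701 to 0.02485 for Lin28a and -0.2791 to 0.222 for Lin28b. For the GABPA response less the GABPB1 response they were -0.4697 to 0.1329 for Otx2, -0.1914 to 0.02697 for Dnmt3a, -0.07666 to 0.1095 for Zic2 and -0.02856 to 0.2156 for Sall2. For the GABPA response less the GABPB1/GABPB2 response they were -1.361 to 4.438 for Otx2, -0.3104 to 0.2321 for Pou3f1 and -0.1233 to 0.3016 for Lef1. For Lin28b between the GABPB1/GABPB2 and GABPA lines in DMSO it was -0.1758 to 0.328. In SLAM-seq at 1 h they were -0.2426 to 0.5 for Dnmt3b and -0.7571 to 0.5286 for Lef1. At 2 h they were -0.05529 to 0.08049 for Dnmt3b, -0.8504 to 0.5072 for Lef1, -0.0661 to 0.4681 for Lin28a and -0.2408 to 0.3135 for Lin28b, and Pou3f1 reached 0.3434. At 4 h they were -0.06593 to 0.3014 for Dnmt3a, -0.5418 to 0.3505 for Pou3f1 and -0.01452 to 0.5236 for Lin28b. At 12 h they were -0.3343 to 0.1692 for Dnmt3b and -0.1953 to 0.4923 for Lin28a, and for 12 h less 1 h -0.5946 to 0.2064 for Dnmt3b.

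Counts of all genes called moved by over 1.5 times too. With only the libraries of the comparison, 3187 in place of 1106 genes were called in the GABPB1 line, 1311 in place of 2097 in the GABPB1/GABPB2 line and 319 in place of 533 in SLAM-seq at 2 h. All reads gave 1, 58, 15481 and 9783 genes in SLAM-seq at 1 h, 2 h, 12 h and 12 h less 1 h, and uniquely mapped reads 1, 65, 15394 and 9614, in place of 282, 533, 4857 and 1087. Leaving out 1 library brought the count down to 341 in the GABPB1 line, 1162 in the GABPB1/GABPB2 line, 78 at 1 h, 269 at 2 h, 304 at 4 h, 2951 at 12 h and 447 for 12 h less 1 h.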
